A study of Mus musculus with 6 samples.

Results

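The mouse mitochondrial genome encodes the genes whose symbols start with mt-, and the 37 of them among the 28773 genes listed for each sample are described here. The rule that picks them reads the symbol alone and no measured value, although the mitochondrial genes were taken up as a subject with earlier results of these data known. They comprise 13 mRNAs, 2 rRNAs and 22 tRNAs. RNA was sequenced from CD8+ T cells taken from mouse spleens on day 35 with a CD8+ T cell isolation kit, which does not guarantee purity. In both groups the tumour of the mouse had been treated by microwave ablation (MWA), which destroys tissue by heat. Mice of the 3 MWA+PBS samples then received injections of the PBS vehicle, and those of the 3 MWA+2DG samples received 2-deoxy-D-glucose (2DG), a glucose analogue that blocks glycolysis. In the paper's treatment scheme these injections had ended before day 35. All mice of the study were female. The sources used here do not name the tumour model or the strain of these mice, and every sample carried the ablation, so no untreated level could be given. The labels name 6 samples without saying that each was a separate animal, so p-values measure the spread between these samples. They name no batch of isolation or sequencing either, so that any batch effect in step with the groups and the effect of 2DG cannot be told apart.

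Both strands of the circular mitochondrial genome are transcribed as long precursors. Most mRNAs and both rRNAs are flanked by tRNAs, which are cut out by RNase P and the tRNA 3′ endonuclease ELAC2 to release the RNAs between them. The mRNAs encode membrane subunits of respiratory complexes I, III, IV and V, whose other subunits are nuclear, while the rRNAs and tRNAs serve translation inside the organelle. Memory CD8+ T cells are known to draw on oxidative phosphorylation, which these complexes carry out.

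The genes are packed so tightly that several overlap, and reads in an overlap may count for either gene. The GENCODE M21 annotation on build GRCm38 lists 14 shared bases for mt-Nd5 and mt-Nd6, which lie on opposite strands, 43 for mt-Atp8 and mt-Atp6, and 7 for mt-Nd4l and mt-Nd4. The ends of these genes are shown because reads that fall in them cannot be given to a single gene by position alone, which bears on the values of these 6 genes. Capitals mark the shared bases, each sequence is written 5′ to 3′ on the strand of its gene, and the mt-Nd6 end is the reverse complement of the mt-Nd5 end over them.
mt-Nd5 3′ end (chrM:13506-13565, plus strand): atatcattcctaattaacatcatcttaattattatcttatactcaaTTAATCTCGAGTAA
mt-Nd6 3′ end (chrM:13552-13611, minus strand): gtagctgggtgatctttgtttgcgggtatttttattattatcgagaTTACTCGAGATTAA
mt-Atp8 3′ end (chrM:7910-7969, plus strand): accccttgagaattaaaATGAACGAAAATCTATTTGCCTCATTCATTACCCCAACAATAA
mt-Atp6 5′ end (chrM:7927-7986, plus strand): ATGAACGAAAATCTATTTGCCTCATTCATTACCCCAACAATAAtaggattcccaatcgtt
mt-Nd4l 3′ end (chrM:10114-10173, plus strand): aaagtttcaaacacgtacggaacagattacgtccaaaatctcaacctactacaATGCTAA
mt-Nd4 5′ end (chrM:10167-10226, plus strand): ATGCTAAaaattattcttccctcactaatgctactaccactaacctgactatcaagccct

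The tRNA genes are 59 to 75 bases long. Mature tRNAs have no poly(A) tail, so in libraries made from poly(A) RNA the value at a tRNA can include fragments of longer RNAs that cover it, and the values used here do not separate these forms. A lower value at a tRNA gene is therefore not by itself a measure of less mature tRNA. Whole sequences follow for 3 tRNAs that were lower in MWA+2DG (mt-Tl1 for leucine, mt-Tm for methionine, mt-Tw for tryptophan) and 2 that did not pass the test (mt-Te for glutamate, mt-Ts1 for serine). Capitals in mt-Ts1 mark the 3 bases it shares with the end of mt-Co1 on the opposite strand.
mt-Tl1 (chrM:2676-2750, plus strand): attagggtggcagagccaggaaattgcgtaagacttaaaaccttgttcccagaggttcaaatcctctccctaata
mt-Tm (chrM:3845-3913, plus strand): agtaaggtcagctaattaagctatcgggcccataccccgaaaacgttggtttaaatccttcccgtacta
mt-Tw (chrM:4950-5016, plus strand): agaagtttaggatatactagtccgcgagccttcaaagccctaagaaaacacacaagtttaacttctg
mt-Te (chrM:14071-14139, minus strand): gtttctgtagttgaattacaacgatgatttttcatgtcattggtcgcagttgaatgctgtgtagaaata
mt-Ts1 (chrM:6870-6938, minus strand): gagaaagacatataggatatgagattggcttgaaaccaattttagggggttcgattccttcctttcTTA

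The clearest differences were in the rRNAs and tRNAs. Both rRNAs and 16 of the 22 tRNAs were lower in MWA+2DG, against 1 of the 13 mRNAs, mt-Co1, and mt-Nd6 was the single gene that was higher. Values are FPKM (fragments per kilobase of transcript scaled to the mapped fragments of the library), and a call is an adjusted p under 0.05 in limma on log2(FPKM + 1), with Benjamini-Hochberg adjustment over all 12444 genes with a mean FPKM of at least 1. All 37 mitochondrial genes passed that minimum. The test called 19 lower and 1 higher, and 17 did not pass. Over all genes tested it called 17.1% lower and 22.3% higher, 39.4% in all. By the rule in the study's methods (unadjusted P under 0.05 and a log2 fold change beyond 0.25) 20 were lower and 1 was higher, where that rule took 16.6% of all genes as lower and 21.6% as higher, 38.2% in all. The 3 samples of each group did not overlap for 23 genes that were lower and 2 that were higher in MWA+2DG, which held for 21.9% and 30.2% of all genes tested, 52.1% together. The median log2 fold change was -0.15 over the mRNAs, -0.63 over the rRNAs and -0.63 over the tRNAs, beside 0.05 over all genes tested. When libraries were scaled to the T cell markers, 35 were lower and 0 higher. The median log2 fold change was then -0.92 over the 37 genes and -0.48 over all genes tested. The share of all genes called under this scaling is not given here, so these counts have no background beside them.

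**Figure D1:**
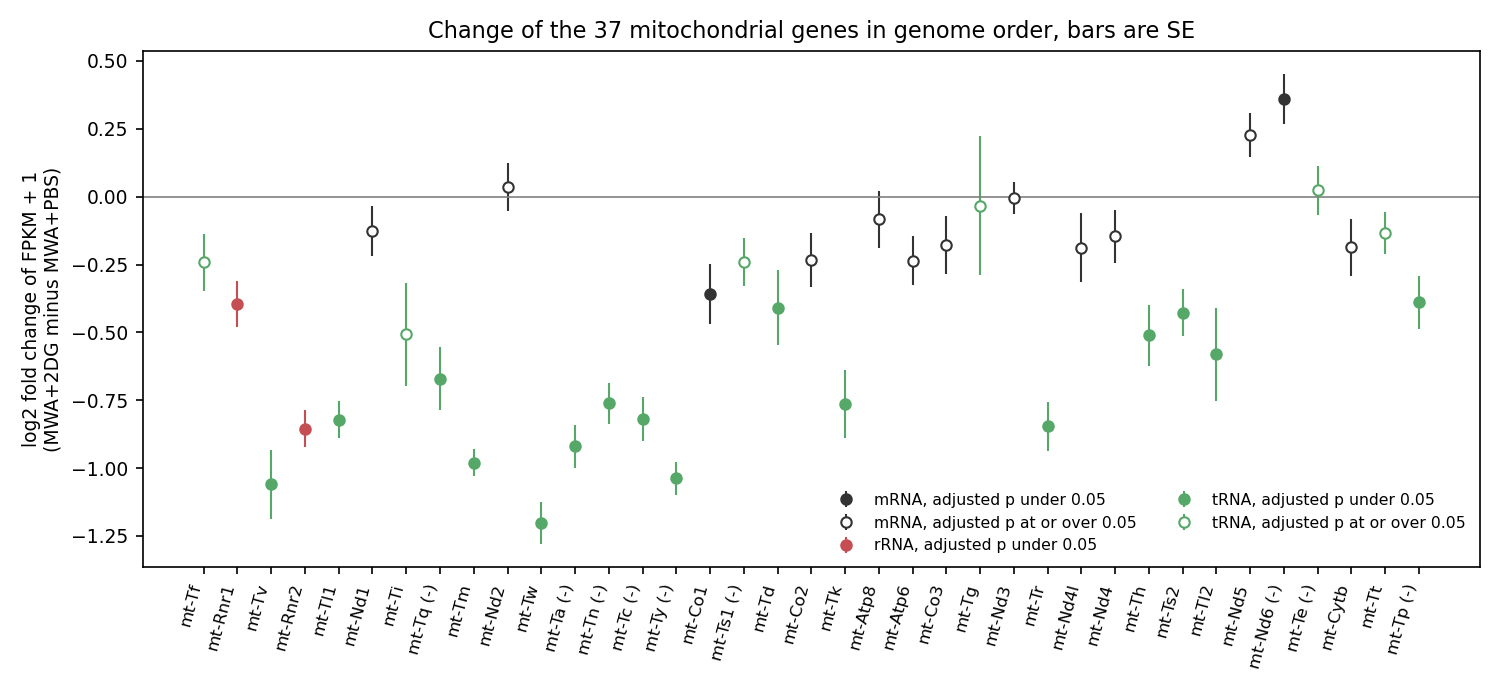
Log2 fold change (vertical axis, MWA+2DG minus MWA+PBS, log2 of FPKM + 1) of each of the 37 mitochondrial genes in genome order (horizontal axis, genes on the minus strand marked), with standard errors as bars and filled points for adjusted p under 0.05. The tRNAs between mt-Nd2 and mt-Co1 sit between -0.76 and -1.20, and mt-Nd6 at 0.36 is the only filled point above 0.

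Together the mitochondrial genes held 21.4%, 22.8% and 22.7% of the summed FPKM in MWA+PBS and 20.3%, 20.7% and 19.4% in MWA+2DG. The groups did not overlap, and the means differed by -2.14 percentage points, with a two-sided exact permutation p of 0.1. This is the smallest p that 3 samples against 3 can give. It was 0.15 after Benjamini-Hochberg adjustment over the 24 shares and ratios computed, 16 of which had groups that did not overlap. Of the mitochondrial FPKM, 95.2% lay in mRNAs. mt-Co1 was the highest gene of each sample, and 6 of the 10 highest genes in each sample were mitochondrial. Read depth is unknown, since the values hold no counts, and no counting interval could be given.

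Markers of several cell types moved with the groups. In MWA+2DG all 9 T cell markers were higher (summed FPKM 1297 to 1363 in MWA+PBS against 1873 to 2006 in MWA+2DG), as were all 8 neutrophil markers (55.2 to 80.4 and 1507 to 1680) and all 6 B cell markers (9.29 to 10.3 and 45.0 to 49.0). All 10 monocyte and macrophage markers (791 to 859 and 113 to 121), all 8 erythroid markers (268 to 323 and 61.3 to 77.0), 3 of 3 tested platelet markers, and the 1 tested marker each of NK and dendritic cells were lower. So were all 7 proliferation genes (92.2 to 97.0 and 49.8 to 53.0) and all 8 stress and immediate early genes (752 to 802 and 109 to 114). No listed marker was at 0 in every sample. The part of these shifts in the values of the mitochondrial genes was not tested, and in bulk RNA fewer cells of a type and less RNA per cell cannot be told apart.

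Complex I (NADH dehydrogenase) takes 7 subunits from the mitochondrial genome, and the only mRNA called higher was among them. mt-Nd6 (ENSMUSG00000064368), the single mRNA annotated on the minus strand, was at 1498, 1784 and 1540 FPKM in MWA+PBS and at 2039, 2171 and 1964 in MWA+2DG. The groups did not overlap. Its log2 fold change was 0.36 ± 0.09 (SE, n = 3 per group, limma adjusted p = 0.0175). Whether strand was used in counting is not given. RNA from the opposite strand, on which mt-Nd5 lies, may therefore be part of this value. The call was lost without MWA+PBS 1 (adjusted p = 0.0708), MWA+PBS 3 (0.0583) or MWA+2DG 5 (0.0624), without the FPKM minimum (0.182) and after quantile normalization (0.0855), and its direction turned, to -0.17, when libraries were scaled to the T cell markers.

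mt-Nd5 (ENSMUSG00000064367), which meets mt-Nd6 tail to tail, was at 2282, 2512 and 2466 FPKM in MWA+PBS and 2796, 2988 and 2721 in MWA+2DG. All MWA+2DG samples were above all MWA+PBS samples, and the log2 fold change of 0.23 ± 0.08 missed the threshold (limma adjusted p = 0.0596). It passed in 5 alternatives (adjusted p between 0.0017 and 0.0426) and, scaled to the T cell markers, was at -0.30 (adjusted p = 0.0103). The other complex I mRNAs did not pass. The mean FPKM of mt-Nd1 was 4377 ± 146 (SD, n = 3) in MWA+PBS and 4016 ± 288 in MWA+2DG, and that of mt-Nd4 was 3355 ± 132 and 3040 ± 297. mt-Nd2 stood at 2738 ± 221 and 2801 ± 118, and mt-Nd4l at 2509 ± 249 and 2210 ± 302. The lowest mRNA of the genome was mt-Nd3, at 245 ± 5.29 and 245 ± 13.6. Its log2 fold change of -0.01 had a 95% interval from -0.14 to 0.13. In these 5 genes the samples of the groups overlapped.

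Complex IV (cytochrome c oxidase), the terminal oxidase, takes its catalytic core from the mitochondrial genome. mt-Co1 (ENSMUSG00000064351) was at 17366, 18058 and 18162 FPKM in MWA+PBS and at 14850, 13592 and 13378 in MWA+2DG. The groups were apart, and the log2 fold change was -0.36 ± 0.11 (limma adjusted p = 0.0361). That call stood without MWA+2DG 4 and was lost on leaving out any other sample (adjusted p between 0.0729 and 0.118) and without the FPKM minimum (0.761). Quantile normalization gives the highest gene of every library the same value, so it set the log2 fold change of mt-Co1 to 0.00 whatever the data. mt-Co2 did not overlap between the groups either (5484 to 5880 and 4332 to 5079 FPKM) and did not pass (log2 fold change -0.23, limma adjusted p = 0.104). mt-Co3 was at 3925 to 4690 and 3507 to 3987 FPKM, with overlapping groups.

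Cytochrome b of complex III, the gene mt-Cytb, was at 4857, 5791 and 5012 FPKM in MWA+PBS and 4883, 4395 and 4455 in MWA+2DG. The groups overlapped and the log2 fold change of -0.19 ± 0.10 did not pass (limma adjusted p = 0.192). For complex V (ATP synthase), mt-Atp6 was at 6300 to 6732 FPKM and 5174 to 5736, without overlap, at a limma adjusted p of 0.0785. It passed in 7 alternatives (adjusted p between 9.13e-05 and 0.045). mt-Atp8, which shares the 43 bases shown above with it, was at 7704 to 8870 and 7514 to 8196.

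**Figure D2:**
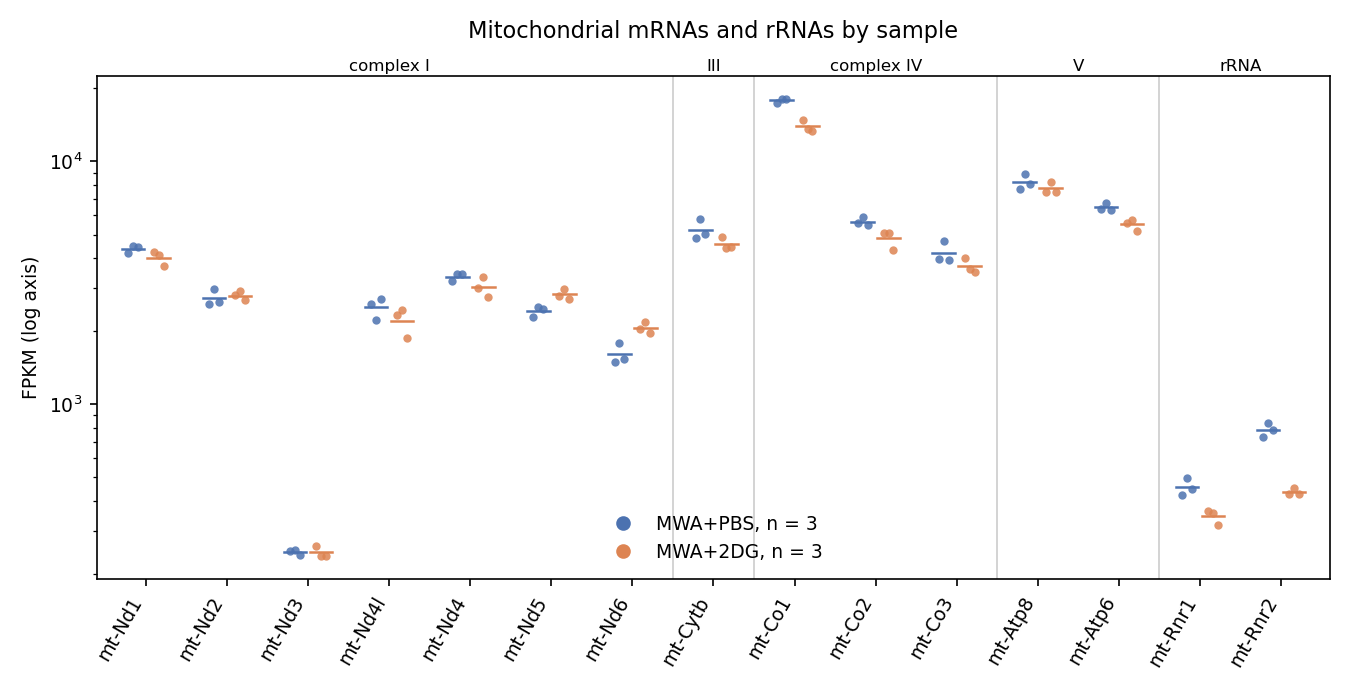
FPKM (vertical log axis) of the 13 mitochondrial mRNAs, grouped by respiratory complex, and the 2 rRNAs (horizontal axis), with 1 point per sample and a line at each group mean (n = 3). The groups are apart for mt-Nd5, mt-Nd6, mt-Co1, mt-Co2, mt-Atp6, mt-Rnr1 and mt-Rnr2 and overlap for the other genes.

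Both rRNAs fell. mt-Rnr2 (ENSMUSG00000064339), the 16S rRNA of the large mitoribosomal subunit, was at 734, 836 and 785 FPKM in MWA+PBS and at 426, 450 and 424 in MWA+2DG. Each MWA+2DG sample lay well below each MWA+PBS sample, and the log2 fold change was -0.85 ± 0.07 (limma adjusted p = 8.56e-05). mt-Rnr1 (ENSMUSG00000064337), the 12S rRNA of the small subunit, was at 420, 494 and 446 FPKM and at 362, 354 and 316. Its log2 fold change was -0.40 ± 0.08 (limma adjusted p = 0.00814). Both calls stood in every alternative tried. As the libraries were made from poly(A) RNA, these values count the rRNA captured in it, and the share of all rRNA that this was is unknown. The ratio of the FPKM of mt-Rnr2 to that of mt-Rnr1 was 1.75, 1.69 and 1.76 in MWA+PBS and 1.18, 1.27 and 1.34 in MWA+2DG. The summed FPKM of the captured rRNA stood at 0.0185 to 0.0197 of that of the mRNAs in MWA+PBS against 0.0133 to 0.0137 in MWA+2DG, a difference of -0.50 on the log2 scale. For both ratios the groups did not overlap and the exact permutation p was 0.1.

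Among the tRNAs, the cluster between mt-Nd2 and mt-Co1 fell throughout. Its 5 genes (mt-Tw, mt-Ta, mt-Tn, mt-Tc and mt-Ty, for tryptophan, alanine, asparagine, cysteine and tyrosine) were called lower with log2 fold changes between -0.76 and -1.20. These genes follow each other in the genome, and fragments of a longer RNA may cover several of them, so their calls need not be independent. mt-Tw had the largest log2 fold change of the 37 genes on the scale of log2(FPKM + 1), while the ratio of mean FPKM (MWA+2DG over MWA+PBS) was lowest for mt-Tv (0.407), followed by mt-Tw (0.427). mt-Tw was at 63.4, 65.7 and 65.1 FPKM in MWA+PBS and 27.4, 30.6 and 24.9 in MWA+2DG, so that no MWA+2DG sample came near the other group (log2 fold change -1.20 ± 0.08, limma adjusted p = 2.68e-05). mt-Ty was at 81.5 to 93.4 and 41.4 to 42.4 FPKM (log2 fold change -1.04).

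The tRNAs beside the rRNAs differed from each other in level. mt-Tl1, which follows mt-Rnr2, was at 594, 660 and 650 FPKM in MWA+PBS and 369, 368 and 339.5 in MWA+2DG (log2 fold change -0.82 ± 0.07, limma adjusted p = 9.74e-05). Its ratio to mt-Rnr2 was 0.789 to 0.828 and 0.80 to 0.865, with overlapping groups (log2 difference 0.03, exact permutation p = 0.5, and 0.00 without MWA+2DG 4 to 0.06 without MWA+2DG 6). mt-Tv, for valine, which lies between the rRNAs, was at 6.30 to 8.23 and 2.46 to 3.52 FPKM (log2 fold change -1.06), and mt-Tf, for phenylalanine, which precedes mt-Rnr1, was at 1.73 to 2.23 and 1.28 to 1.54 and did not pass. mt-Tm, at 45.8 to 47.0 FPKM in MWA+PBS, was at 22.5 to 23.9 in MWA+2DG (log2 fold change -0.98). The scale of log2(FPKM + 1) understates the change of genes as low as mt-Tv and mt-Tf.

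The other tRNAs called lower were mt-Tq (log2 fold change -0.67), mt-Tk (-0.76), mt-Tr (-0.85), mt-Th (-0.51), mt-Ts2 (-0.43), mt-Tl2 (-0.58), mt-Tp (-0.39) and mt-Td (-0.41). They carry glutamine, lysine, arginine, histidine, serine, leucine, proline and aspartate. The mt-Td samples overlapped, and its limma adjusted p was 0.0487. Calls of mt-Td, mt-Tl2 and mt-Tp were lost on leaving out single samples. These were any sample but MWA+2DG 4 for mt-Td (adjusted p between 0.0741 and 0.139), any but MWA+PBS 2 for mt-Tl2 (0.0576 to 0.094) and MWA+PBS 3 for mt-Tp (0.0511). Without the FPKM minimum those of mt-Td (0.116) and mt-Tl2 (0.085) were lost, and that of mt-Td also with a pseudocount of 0.1 (0.0501), without the trend option of limma (0.0562) and with its sample weights, arrayWeights (0.0805). Of the 20 calls, 15 stood in every alternative in which the gene was tested, both rRNAs and 13 tRNAs. The 5 lost in at least 1 were mt-Co1, mt-Nd6, mt-Td, mt-Tl2 and mt-Tp.

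The 6 tRNAs that did not pass included mt-Ts1 and mt-Te, which were among the highest. The tRNA with the highest mean FPKM, mt-Ts1, was at 624, 758 and 622 FPKM in MWA+PBS and 569, 572 and 549 in MWA+2DG (log2 fold change -0.24, limma adjusted p = 0.0652). mt-Te was at 259, 314 and 267 FPKM and at 267, 307 and 279, with overlapping groups and a log2 fold change of 0.02 (95% interval -0.19 to 0.23). mt-Ti, for isoleucine, was at 8.22 to 13.4 and 5.27 to 7.84 FPKM (log2 fold change -0.51, limma adjusted p = 0.0681) and passed without MWA+PBS 2 (-0.64, adjusted p = 0.0422). mt-Tt, for threonine, and mt-Tg, for glycine, had overlapping groups. The strand did not separate the calls, with 10 of 14 tRNAs on the plus strand and 6 of 8 on the minus strand called lower.

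**Figure D3:**
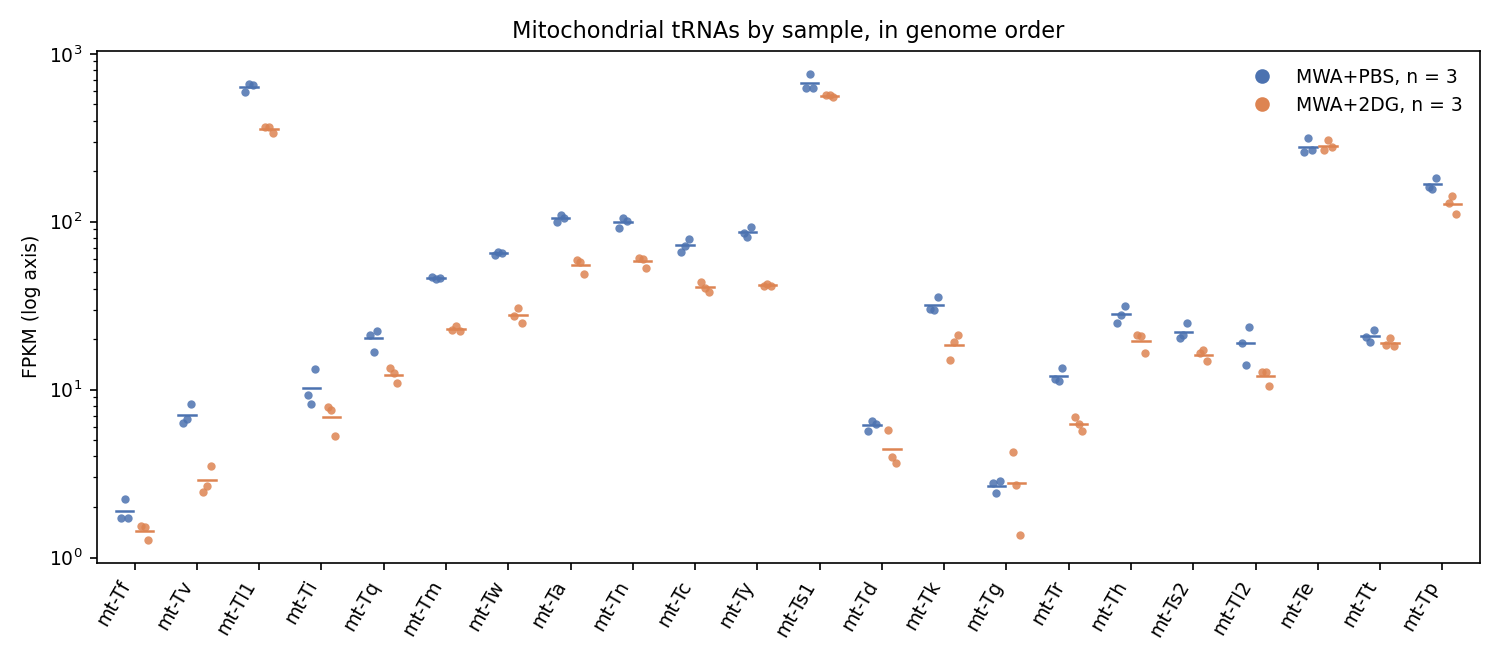
FPKM (vertical log axis) of the 22 mitochondrial tRNAs in genome order (horizontal axis), with 1 point per sample and a line at each group mean (n = 3). The groups are apart for 18 tRNAs, all lower in MWA+2DG, and overlap for mt-Td, mt-Tg, mt-Te and mt-Tt.

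To see how the transcripts changed against each other, each library was centred on the mean log2 value of the 13 mRNAs and the whole table was fitted again. Relative to that mean, of which each mRNA is itself a part, mt-Nd5 (log2 fold change 0.31 ± 0.07, limma adjusted p = 0.00632) and mt-Nd6 (0.45 ± 0.08, adjusted p = 9.87e-04) were higher in MWA+2DG and mt-Co1 (-0.27 ± 0.07, adjusted p = 0.013) was lower. Both rRNAs were lower (mt-Rnr1 -0.31, mt-Rnr2 -0.77), as were 15 tRNAs. This made 2 higher and 18 lower, where the centred fit called 26.6% of all genes higher and 11.4% lower, 38.0% in all. The call of mt-Co1 relative to mt mRNAs was lost without MWA+2DG 6 (adjusted p = 0.0618) and without the FPKM minimum (0.492), and that of mt-Nd5 relative to mt mRNAs without the FPKM minimum (0.19), while mt-Nd6 passed in each alternative of this fit. Of the 15 tRNA calls, 12 stood in every alternative. The calls of mt-Ts2 relative to mt mRNAs, of mt-Tl2 relative to mt mRNAs and of mt-Tp relative to mt mRNAs were lost in at least 1. All 3 of these were lost without MWA+PBS 3 (adjusted p = 0.113, 0.0935 and 0.135) and without MWA+2DG 4 (0.0554, 0.0589 and 0.0843), those of mt-Tl2 and mt-Tp also without MWA+PBS 1 (0.0587 for each) or MWA+2DG 6 (0.138 and 0.101). With the median of the mRNAs as the reference mt-Ts2 (0.0741) and mt-Tp (0.113) did not pass, nor did mt-Tp without the trend option (0.0506). Centring on the mRNAs moved the median of all genes tested from 0.05 to 0.13.

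Ratios within a library do not depend on its total. Those between single transcripts and that of tRNA to mRNA, 8 in all, were chosen after the data were seen. The ratio of mt-Nd5 to mt-Nd4 was 0.712, 0.734 and 0.717 in MWA+PBS and 0.932, 0.891 and 0.984 in MWA+2DG. That of mt-Nd6 to mt-Cytb was 0.307 to 0.308 and 0.417 to 0.494. mt-Nd6 against mt-Nd5 differed by less (0.625 to 0.710 and 0.722 to 0.729). mt-Te, the neighbour of mt-Nd6 on the same strand, was at 0.173 to 0.176 of mt-Nd6 in MWA+PBS and at 0.131 to 0.142 in MWA+2DG. In these 4 ratios the groups did not overlap (exact permutation p = 0.1 each). Summed tRNA was 0.0363 to 0.0375 of summed mRNA and 0.0289 to 0.0301, also without overlap, while the groups overlapped for mt-Ts1 against mt-Co1 (log2 difference 0.12, exact permutation p = 0.3, and 0.06 without MWA+PBS 3 to 0.21 without MWA+PBS 2).

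**Figure D4:**
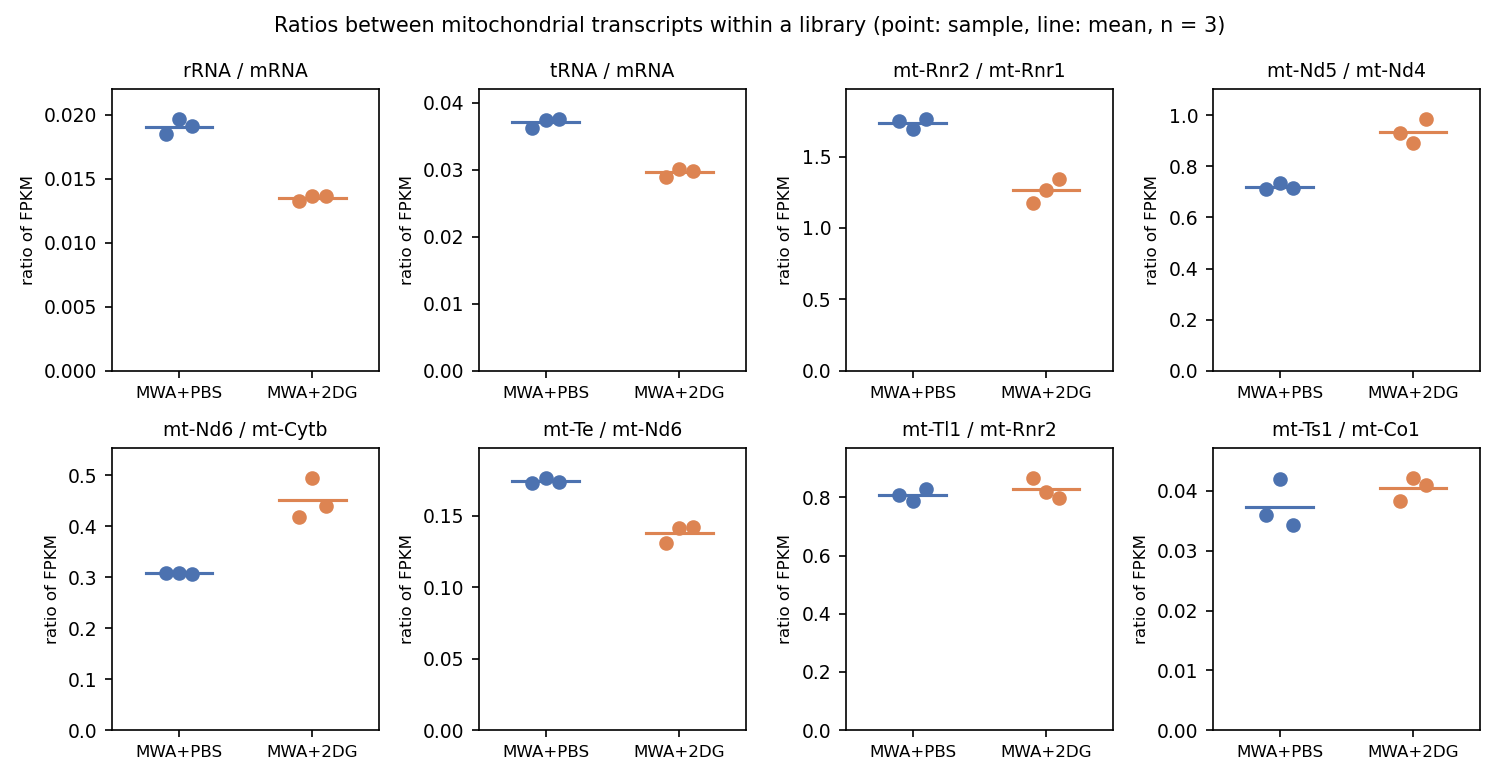
Ratio of FPKM within a library (vertical axes, each from 0) for 8 pairs of mitochondrial transcripts or classes in the 2 groups (horizontal axes), with 1 point per sample and a line at each mean (n = 3). The groups are apart in 6 panels and overlap for mt-Tl1 to mt-Rnr2 and mt-Ts1 to mt-Co1.

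The shares of complexes I and IV in the mRNA pool differed between the groups without overlap. Complex I mRNAs held 26.6%, 26.1% and 27.1% of the mitochondrial mRNA FPKM in MWA+PBS and 29.4%, 31.0% and 29.3% in MWA+2DG. Complex IV mRNAs held 43.1%, 42.3% and 42.8% and then 40.3%, 37.8% and 39.1%. The means were apart by 3.31 and -3.66 percentage points (exact permutation p = 0.1 for each). The summed FPKM of the complex I mRNAs overlapped between the groups (16629 to 17654 and 15922 to 18214), so their share rose as the rest of the pool fell. Within that sum the means of mt-Nd2, mt-Nd5 and mt-Nd6 were higher in MWA+2DG, and those of mt-Nd1, mt-Nd3, mt-Nd4 and mt-Nd4l were lower. The complex IV mRNAs summed to 26929 to 28627 FPKM with PBS, while with 2DG their sum was 21216 to 23916. Most of this sum was mt-Co1, whose mean was 17862 FPKM with PBS against 13940 with 2DG. Its ratio of means (2DG over PBS) was 0.780, beside 0.853 for mt-Co2 and 0.882 for mt-Co3. The lower share therefore lay mainly in mt-Co1, whose call was lost on leaving out any sample but MWA+2DG 4. The shares of complex III (7.77% to 8.56% and 7.48% to 8.22%, p = 1.0) and complex V (22.3% to 23.1% and 22.1% to 23.7%, p = 0.5, both exact permutation) overlapped.

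Nuclear pseudogenes copied from mitochondrial DNA can take reads from the genes they resemble. Of the listed genes, 7 had over 99% identity to a mitochondrial mRNA over their aligned length, and 6 of them were listed at levels near those of the mitochondrial gene. Gm28661, identical to mt-Co2 over 681 bases, was at 0.994 to 1.0 times the FPKM of mt-Co2 in each sample, and Gm10925, identical to mt-Atp6 over 678 bases, at 1.08 to 1.09 times that of mt-Atp6. Gm28437 (mt-Co3), Gm28438 (mt-Nd3), Gm10222 (mt-Nd4l) and Gm28439 (mt-Nd4, first 876 bases) stood at 0.768 to 1.14 times their counterparts. Gm29216 matches 483 bases of mt-Co1 with 1 mismatch and was at 0.130 to 0.163 times mt-Co1. It was the 1 near-identical copy called (log2 fold change -0.50, limma adjusted p = 0.00535). The less similar Gm13340, Gm13341 and Gm13339 stayed at or below 14.2 FPKM. With the near-identical copies, the mitochondrial share was 29.4% to 31.0% in MWA+PBS against 26.1% to 28.3% in MWA+2DG, a difference of -3.10 percentage points. The sources used here do not say how reads were divided between a copy and its source, so the levels of these 7 mRNAs are uncertain. Copies were sought only among annotated transcripts of listed genes, so unannotated copies of the other mitochondrial genes were not examined. Summing copies into the mitochondrial gene changed no call of the 37 genes.

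Few nuclear partners of the same complexes passed the test. Of 72 nuclear subunits of complexes I, III, IV and V, 4 were called higher and 5 lower, or 5.56% and 6.94%, beside 22.3% and 17.1% of all genes, with a median log2 fold change of 0.00. Each of these 9 calls was lost on leaving out at least 1 sample (adjusted p up to 0.146). Cox7a2 (-0.31) and Cox8a (-0.35) of complex IV and Atp5a1, Atp5b and Atp5o of complex V (-0.17 to -0.21) were lower. Ndufa7, Ndufb4 and Ndufv3 of complex I (0.22 to 0.50) and Atp5j of complex V (0.34) were higher, and reversed to between -0.03 and -0.31 when scaled to the T cell markers. The geometric mean of the mitochondrial mRNAs was 232, 242 and 272 times that of these nuclear subunits in MWA+PBS and 231, 247 and 219 times in MWA+2DG (log2 difference -0.10, exact permutation p = 0.4). By complex the log2 difference was -0.04 for I (p = 0.7), -0.15 for III (p = 0.1), -0.16 for IV (p = 0.2) and -0.15 for V (p = 0.2, all exact permutation), and the groups did not overlap for complex III. Without MWA+PBS 3 these came to 0.03, -0.10, -0.09 and -0.09 and the ratio over all 4 complexes to -0.03. Without MWA+2DG 6 the latter was -0.06, and those of complexes I and V were 0.01 and -0.10.

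Nuclear genes were taken from 7 lists, on replication of mitochondrial DNA, on transcription, processing, decay and modification of its RNA, on translation factors and on regulators of biogenesis, some of which act on nuclear genes. Over these lists, 28 of 91 tested genes were higher and 7 were lower, with a median of 0.14, beside 22.3% and 17.1% of all genes. Scaled to the T cell markers, 2 were higher and 71 lower, under the scaling that moved the median of all genes. At most 2 of the 28 higher calls therefore stood under it, and the share of all genes called is not given here. Without MWA+PBS 1, MWA+PBS 3 or MWA+2DG 4 each, 23 were called. Of the 24 called genes named from these lists, 8 lost the call without at least 1 sample (adjusted p up to 0.121), and these were Tfam, Tfb2m, Tefm, Mterf2, Polg, Fastkd1, Gabpb2 and Nrf1.

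In the transcription list 6 of 11 genes (54.5%) were higher and 0 lower, beside 22.3% and 17.1% of all genes. Tfam, which packages the genome and starts transcription, was at 8.28, 9.57 and 8.54 FPKM in MWA+PBS and 10.7, 10.9 and 10.6 in MWA+2DG (log2 fold change 0.26, limma adjusted p = 0.0162). Tfb2m (0.27), the initiation factor, Tefm (0.48), the elongation factor, Mterf2 (0.50), Mterf1b (0.55) and Mterf1a (0.92) were also higher, and the Mterf1a and Mterf1b values are uncertain because the genes are near-identical copies. The RNA polymerase gene Polrmt was at 8.36 to 8.76 and 7.13 to 7.99 FPKM, without overlap, and did not pass (log2 fold change -0.16, limma adjusted p = 0.0843). Scaled to the T cell markers, Tfam, Tfb2m, Tefm and Mterf2 turned to between -0.03 and -0.27.

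In the replication list 8 of 16 genes were higher (50.0%, beside 22.3% of all genes) and 4 lower (25%, beside 17.1%). Twnk, the replicative helicase, was at 7.53 to 7.81 FPKM in MWA+PBS and fell to 5.22 to 5.87 in MWA+2DG (log2 fold change -0.43), and the nucleases Dna2 (-0.87) and Exog (-0.41) were lower. Polg, the catalytic subunit of the DNA polymerase, was higher by 0.23 and Primpol, a primase, by 0.52. So were Dguok (0.72) and Rrm2b (0.60), which supply deoxynucleotides. Polg and Primpol turned to -0.30 and -0.01 when scaled to the T cell markers.

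In the processing list 1 of 15 was higher (6.67%, beside 22.3% of all genes), Fastkd1 at 0.24, and Elac2, whose product cuts tRNA 3′ ends, was at 11.7 to 12.7 and 12.3 to 13.6 FPKM (log2 fold change 0.09, 95% interval -0.06 to 0.23). In the stability and decay list 1 of 6 was higher (16.7%, beside 22.3% of all genes), Angel2 at 0.35. Lrpprc (-0.07), which with Slirp stabilises the mRNAs, and the degradosome genes Pnpt1 (0.26) and Supv3l1 (0.24) did not pass, and Slirp was below the FPKM minimum. Fastkd1 and Angel2 turned to -0.29 and -0.18 when scaled to the T cell markers, and Elac2, Pnpt1 and Supv3l1 turned negative too.

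Of the genes that modify mitochondrial RNA, 9 of 19 (47.4%) were higher and 0 lower, beside 22.3% and 17.1% of all genes. Nsun3 (0.66), Cdk5rap1 (0.60) and Trmu (0.43), which modify bases of mitochondrial tRNAs, had the largest changes, and Trmu turned to -0.11 when scaled to the T cell markers. In the translation list Mtif2 (0.47), an initiation factor, was higher and Gfm1 (-0.30), an elongation factor, lower, each 7.69% of the 13 tested. Of 11 tested regulators of biogenesis, Ppargc1b, a coactivator of respiratory genes, was at 6.75 to 7.5 FPKM in MWA+PBS and fell to 4.11 to 4.58 in MWA+2DG (log2 fold change -0.61) and Nrf1, at 3.96 to 4.53, fell to 3.05 to 3.46 (-0.29). They made up 18.2% of the list, as did Myc (0.27) and Gabpb2 (0.22), which were higher and turned to -0.26 and -0.31 under the T cell scaling, as did Mtif2, to -0.06. Esrra (0.19) did not pass and turned negative under the T cell scaling, and Ppargc1a, at a mean of 0.03 and 0.04 FPKM, was not tested.

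**Figure D5:**
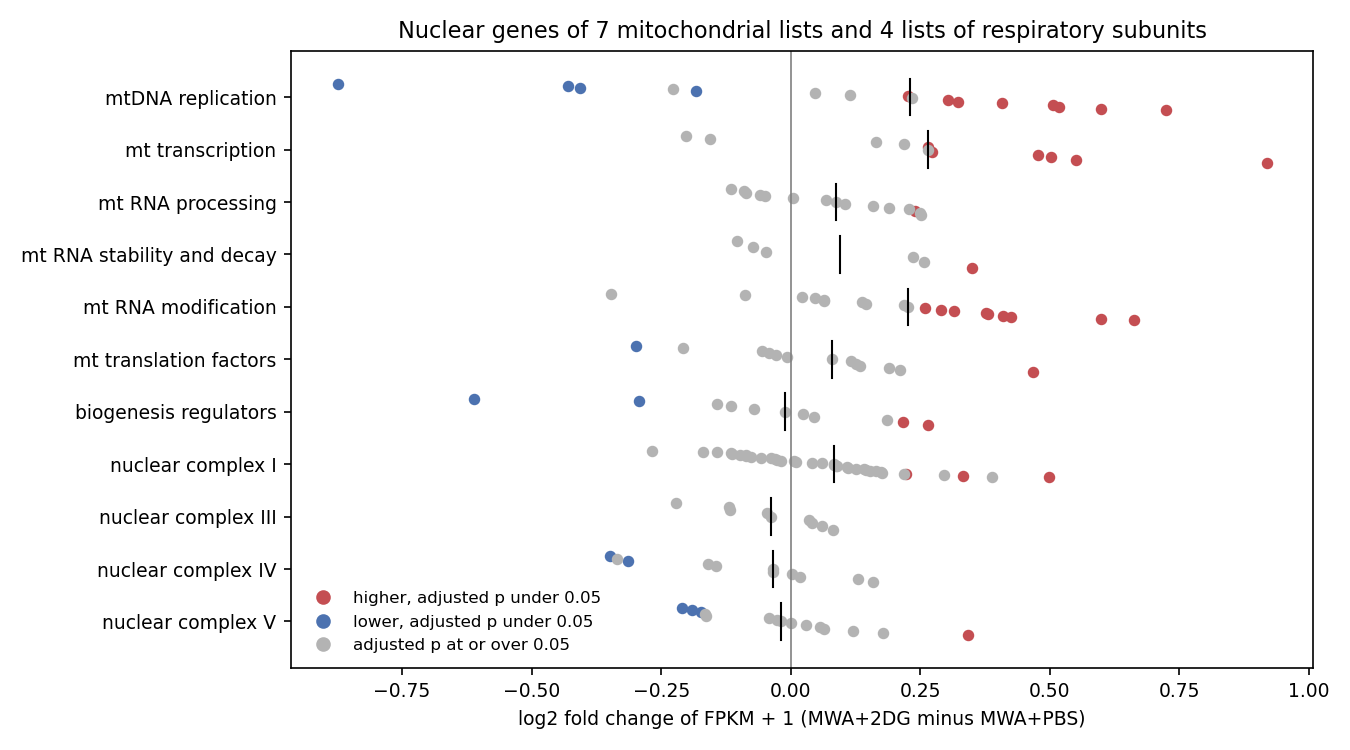
Log2 fold change (horizontal axis, MWA+2DG minus MWA+PBS, log2 of FPKM + 1) of each tested nuclear gene in 7 lists (mitochondrial DNA replication, 4 steps of RNA metabolism, translation factors, biogenesis regulators) and 4 lists of respiratory subunits (vertical axis). Each point is a gene, coloured by call, and black bars are list medians, which lie between -0.04 and 0.27.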

How the data were processed

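RNA-seq of splenic CD8+ T cells was analysed in 3 MWA+PBS and 3 MWA+2DG samples, grouped by their GEO titles. The authors selected poly(A) RNA, made strand-marked libraries with molecular identifiers in the adapters, and deposited FPKM values per gene. They checked reads with fastp and used HISAT2, StringTie and ballgown. The submitters' processing notes also name cutadapt 1.9, HISAT2 2.0.4, UMI-tools, StringTie 1.3.4d and build mm9. The sources used here do not give whether strand or identifiers were used in counting. As each library is scaled to its own total, a rise of abundant transcripts lowers the FPKM of the rest. Totals were between 291803 and 313257, with 12198 to 12515 genes at an FPKM of at least 1.

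Genes with a mean FPKM of at least 1 were fitted as log2(FPKM + 1) with limma 3.58.1 (R 4.3.3) by lmFit and eBayes with its trend option, two-sided and without covariates. Centred fits subtracted the mean of the mitochondrial mRNAs. Single values per sample were compared with exact permutation tests (scipy 1.17.1). The script of the fit was tested on simulated data. Symbols, sequences and overlaps came from GENCODE M21 on GRCm38, whose coordinates are given for the sequences shown only. Nuclear copies were sought among its transcripts with BLAST 2.17.0 (identity of at least 95% over at least 50 bases). Promoters and proteins were not used.

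All mitochondrial mRNAs, rRNAs and tRNAs with a mean FPKM of at least 1 were named. Nuclear genes named were Polrmt, Tfam, Tfb2m, Tefm, Lrpprc, Slirp, Pnpt1, Supv3l1, Elac2, Polg, Twnk, Ppargc1a, Ppargc1b, Nrf1 and Esrra, and per list the 3 largest increases and 3 largest decreases among called genes whose groups did not overlap. The genes described and all lists were chosen with earlier results of these data known. Alternatives were a pseudocount of 0.1, no minimum or one of 5 FPKM, other scalings, eBayes without a trend, arrayWeights, the study's rule, other references for the centring and the shares, and leaving out each sample.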

Additional observations from a re-analysis of the deposited data

How the results depend on the processing

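The number of mitochondrial genes called stayed between 15 and 23 of 37 in all alternatives but scaling to the T cell markers, which called 35, all lower. The share of all genes called under that scaling is not given here. Relative to the mitochondrial mRNAs it stayed between 17 and 22. Of the nuclear genes of the 7 lists on mitochondrial DNA, RNA, translation and biogenesis, 18 were called with a minimum of 5 FPKM, where fewer genes were tested, 73 with the T cell scaling, 52 with arrayWeights, and 23 to 42 on leaving out each sample, against 35. The mitochondrial share differed by -3.10 percentage points with the nuclear copies counted in, against -2.14. The ratio of rRNA to mRNA kept its direction in every alternative, at -0.52 to -0.47 on leaving out each sample. That of mRNA to nuclear subunits kept its direction too, but ranged from -0.15 to -0.03, the latter without MWA+PBS 3, and for complex I alone it ranged from -0.09 to 0.03. Leaving out samples for the shares and ratios by complex, summing or removing the nuclear copies, and the ratios between single transcripts, were chosen after seeing the data.

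Directions turned as follows. The cause was not tested. With quantile normalization, log2 fold changes became 0.039 for mt-Nd1, 0.043 for mt-Ts1, 0.027 for mt-Cytb and -0.051 for mt-Te. That of mt-Co1 was 0.00 by construction, since it was the highest gene of each sample. Scaled to the T cell markers they became -0.50 for mt-Nd2, -0.30 for mt-Nd5, -0.17 for mt-Nd6 and -0.51 for mt-Te. Among nuclear genes they became -0.27 for Tfam, -0.26 for Tfb2m, -0.053 for Tefm, -0.028 for Mterf2, -0.44 for Elac2, -0.29 for Supv3l1, -0.27 for Pnpt1, -0.18 for Angel2, -0.29 for Fastkd1, -0.11 for Trmu, -0.062 for Mtif2, -0.26 for Myc, -0.34 for Esrra, -0.31 for Gabpb2, -0.012 for Primpol and -0.30 for Polg. Of the subunits they became -0.031 for Ndufb4, -0.20 for Ndufv3, -0.31 for Ndufa7 and -0.19 for Atp5j. mt-Te was -0.0020 with median ratio scaling and mt-Nd3 0.0018 with the sum without mitochondrial genes. When the median of the mRNAs was the reference, mt-Nd1 relative to mt mRNAs was 0.029, mt-Nd4 relative to mt mRNAs 0.0086 and mt-Tt relative to mt mRNAs 0.021. With arrayWeights mt-Atp8 relative to mt mRNAs was -0.032.

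Leaving out each sample gave -0.0024 to 0.10 for mt-Nd2, -0.31 to 0.27 for mt-Tg, -0.051 to 0.018 for mt-Nd3 and -0.033 to 0.11 for mt-Te. Relative to the mRNAs it gave -0.022 to 0.045 for mt-Atp8, -0.20 to 0.31 for mt-Tg and -0.13 to 0.022 for mt-Tt. None of these 6 genes was called in the report. No paired analysis was possible because the groups share no sample number (MWA+PBS has 1 to 3, MWA+2DG has 4 to 6). Depth limits are unknown, since no counts were used.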
